A study of Arabidopsis thaliana with 10 samples.

Results

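The comparison set the transcripts of one overexpressor of a growth-restraining protein directly against those of an overexpressor of its homologue. Members were the genes with at least 1 FPKM (sequenced fragments per length of transcript and per size of library) in the IBH1 overexpressor, the IBL1 overexpressor or both, which were 21037 of the 34047 genes in the deposited tables (61.8%). The IBH1 overexpressor was homozygous for 35Spro:IBH1-GFP and the IBL1 overexpressor for 35Spro:IBL1-GFP, both in the Col-0 ecotype, so each carried its gene fused to GFP under the 35S promoter, which is active in most plant tissues. Whole seedlings 10 days old were taken with no treatment, and each genotype had 2 libraries. Col (the wild type), the ibh1 mutant (SALK 049177) and the ibl1 mutant (SALK 119457), of the same age and also with 2 libraries each, are quoted only as reference levels. The deposited values are 1 FPKM per genotype, so no spread between libraries can be shown, the depth per library is unknown, and the labels do not say whether a line is 1 transgenic event.

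Brassinosteroids are steroid hormones that promote the elongation of plant cells through the transcription factors BZR1 and BES1. IBH1 and IBL1 are helix-loop-helix (HLH) proteins without a DNA-binding basic region, and they restrain elongation by pairing with growth-promoting basic helix-loop-helix (bHLH) factors such as HBI1. The PRE proteins, another group of HLH proteins, pair with IBH1 and relieve that restraint, and expansins and xyloglucan endotransglucosylase/hydrolases (XTH enzymes) loosen the wall of the elongating cell.

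Each line carried its own transgene, and the transcript levels reached were far apart. The IBH1 gene (AT2G43060; TAIR10 chromosome 2, 17909185 to 17910082) reached 5148 FPKM in the IBH1 overexpressor, 20.3 FPKM in the IBL1 overexpressor and 22.2 FPKM in Col. The IBL1 gene (AT4G30410; TAIR10 chromosome 4, 14871109 to 14872176) stood at 1.84 FPKM in the IBH1 overexpressor, 201 FPKM in the IBL1 overexpressor and 7.70 FPKM in Col. The IBH1 transcript in its line was therefore 25.6 times as abundant, per length, as the IBL1 transcript in its line, and native IBL1 was below its Col level in the IBH1 overexpressor. Transgene and native reads are counted together in these values, and in every result that follows the identity of the gene and the level it reached cannot be told apart. The log2 difference (IBH1 over IBL1 overexpressor) was 7.99 ± 0.30 for IBH1 and -6.78 ± 0.75 for IBL1, where the figure after ± is the standard error taken from the authors' statistics.

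Of the 21037 members, 19850 had a usable standard error in both tables and were tested. A gene was called at an adjusted p below 0.05 in a two-sided Wald test of the log2 ratio of the FPKM values, with Benjamini-Hochberg adjustment over all tested members. This called 1098 genes, or 5.53% of those tested: 280 were higher in the IBH1 overexpressor (1.41%) and 818 were lower (4.12%). At least 2-fold differences among the calls were 39 higher and 266 lower. Without a test, 528 genes were at least 2-fold higher (2.57%) and 1454 at least 2-fold lower (7.07%) in the IBH1 overexpressor, of 20557 with a value above 0 in both lines (9.64% in all). Many of these passed the filter only through the line where they were high, and with 1 FPKM required in both lines the counts were 268 and 937. The median log2 difference of all tested members was -0.12. After that shift was subtracted from every gene (centred values) the calls were 528 higher (2.66%) and 486 lower (2.45%), or 5.11% in all. Centring within 20 bins of level gave 438 higher (2.21%) and 558 lower (2.81%), or 5.02% in all. The excess of lower genes among the calls therefore depends on the scaling. Among genes at least 2-fold apart, without a test, more stayed lower, with 697 higher and 1156 lower after centring on the median. The counts were 840 and 961 after centring within bins. Called both as deposited and after centring on the median were 280 higher and 486 lower genes. All log2 differences below include the shift, and a call that was lost after centring is named as such.

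**Figure D1:**
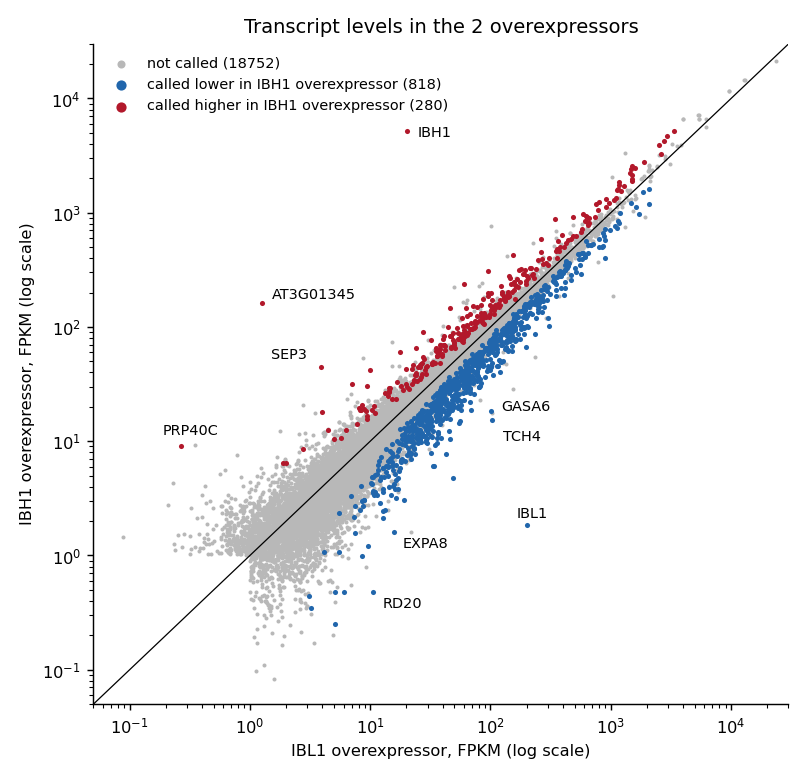
FPKM of the tested members in the IBL1 overexpressor (x axis, log scale) and the IBH1 overexpressor (y axis, log scale), 1 point per gene, with the line of equal values; 7 genes lie outside the axes. Red points are the 280 genes called higher and blue points the 818 called lower in the IBH1 overexpressor, and IBH1 and IBL1 stand far from the line on opposite sides.

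Genes of cell elongation were among those with the largest differences. Among genes with at least 1 FPKM in both lines, EXPA8, an expansin, was at 1.61 FPKM in the IBH1 overexpressor, 15.7 FPKM in the IBL1 overexpressor and 41.0 FPKM in Col. Its log2 difference was -3.28 ± 0.61, 9.74-fold lower in the IBH1 overexpressor. GASA6, a gibberellin-regulated peptide gene that promotes cell elongation, was at 18.4 FPKM in the IBH1 overexpressor, 101 FPKM in the IBL1 overexpressor and 305 FPKM in Col, a log2 difference of -2.45 ± 0.28. Both genes were thus below Col in both lines and lowest in the IBH1 overexpressor. In contrast, the XTH gene TCH4 lay on both sides of Col, at 15.5 FPKM in the IBH1 overexpressor, 25.5 FPKM in Col and 103 FPKM in the IBL1 overexpressor, a log2 difference of -2.74 ± 0.29. Reads of GASA6 could include those of AT1G74675, an antisense gene that overlaps it by 206 bases, since the labels do not say whether counting used strand. The same limit holds for other genes named below, among them FER1 (1334 bases), LHB1B2 (1045 bases) and EXT3 (522 bases).

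The 250 bases before the RefSeq start of EXPA8, GASA6 and TCH4 are shown because bHLH factors bind the E-box, CANNTG. The genes act in cell elongation or wall loosening and differ widely between the lines. In the gene models behind the FPKM values, EXPA8 starts at 16950557, TCH4 at 23308282 (both minus strand) and GASA6 at 28053286. The windows lie farther upstream than those starts, and the bases directly before them are not shown. The sequences are from the RefSeq annotation and genome (TAIR10.1), 5′ to 3′ on the strand of the gene, with E-boxes in capitals; EXPA8 is at chr2:16950706-16950955 (minus strand), GASA6 at chr1:28052780-28053029 (plus strand) and TCH4 at chr5:23308681-23308930 (minus strand).
EXPA8: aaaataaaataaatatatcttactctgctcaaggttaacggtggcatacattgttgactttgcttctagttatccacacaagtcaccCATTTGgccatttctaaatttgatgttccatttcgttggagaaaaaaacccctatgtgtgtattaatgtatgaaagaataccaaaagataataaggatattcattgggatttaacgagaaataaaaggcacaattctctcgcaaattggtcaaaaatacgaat
GASA6: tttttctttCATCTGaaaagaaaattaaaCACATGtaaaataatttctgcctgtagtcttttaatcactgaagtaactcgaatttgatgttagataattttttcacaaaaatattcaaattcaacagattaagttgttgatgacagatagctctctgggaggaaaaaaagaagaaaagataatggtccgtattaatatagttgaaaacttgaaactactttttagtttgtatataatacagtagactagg
TCH4: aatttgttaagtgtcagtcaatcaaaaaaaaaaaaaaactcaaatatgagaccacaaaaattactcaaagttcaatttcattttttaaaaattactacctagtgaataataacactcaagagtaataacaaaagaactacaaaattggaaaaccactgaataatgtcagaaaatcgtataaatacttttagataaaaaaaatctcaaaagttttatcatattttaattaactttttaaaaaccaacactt
The EXPA8 window held 1 E-box, which begins 163 bases before the RefSeq gene start. The GASA6 window held 2, at 241 and 221 bases, and the TCH4 window held none. None of the 3 windows held the G-box CACGTG (a kind of E-box) or, on either strand, CGTGTG or CGTGCG, the core letters bound by BZR1. An E-box was present in 55.3% of the 250-base windows of all 27443 protein-coding genes, in 56.3% of those of tested members, in 55.8% of those of the genes called lower and in 63.2% of those called higher in the IBH1 overexpressor. The G-box was present in 6.49% of all windows, 7.19% of those of tested members, 7.25% of those of lower genes and 11.9% of those of higher genes. CGTGTG was present in 5.52% of the windows of tested members, 5.53% for lower and 6.32% for higher genes, and CGTGCG in 1.69%, 1.84% and 1.49%. These shares are descriptions, with no test.

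Of 25 tested expansins, 8 were called lower in the IBH1 overexpressor (32%, against 4.12% of all tested genes) and 0 higher. The median log2 difference was -0.59 against -0.12 over all genes, and 6 were called lower after centring. Besides EXPA8, EXLA1, an expansin-like gene, was at 12.4 FPKM in the IBH1 overexpressor, 45.0 FPKM in the IBL1 overexpressor and 21.7 FPKM in Col, a log2 difference of -1.86 ± 0.34. EXPA11 was at 4.76 FPKM and 16.9 FPKM in the same lines and 22.1 FPKM in Col, a log2 difference of -1.83 ± 0.42. The most abundant expansin called, EXPA1, was at 95.9 FPKM in the IBH1 overexpressor, 149 FPKM in the IBL1 overexpressor and 246 FPKM in Col, a difference of -0.64 ± 0.12. EXPB3 reached 47.5 FPKM in the IBH1 overexpressor and 85.9 FPKM in the IBL1 overexpressor, where it matched the 86.8 FPKM of Col to within 1 FPKM. EXPA4 differed by -0.57 ± 0.15, and EXPA5 and EXPA6 lost their calls after centring.

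Of 28 tested XTH genes 8 were called lower in the IBH1 overexpressor (28.6%, against 4.12% of all tested genes) and 0 higher. The median was -0.45, and 8 were called lower after centring. XTH17 was at 7.95 FPKM in the IBH1 overexpressor, 19.5 FPKM in Col and 32.1 FPKM in the IBL1 overexpressor, a log2 difference of -2.01 ± 0.38. XTH18, its close paralog, was at 9.59 FPKM, 19.8 FPKM and 35.8 FPKM in the same order, and XTH19 was at 17.4 FPKM, 21.4 FPKM and 44.5 FPKM. How reads shared by these paralogs were divided is not stated. For XTH17, XTH18 and XTH19 Col therefore lay between the lines, as it did for TCH4. XTH8 and XTH4 showed another pattern, with the IBL1 overexpressor near Col and the IBH1 overexpressor below it. XTH8 was at 15.8 FPKM in the IBH1 overexpressor, 46.3 FPKM in the IBL1 overexpressor and 55.4 FPKM in Col, and XTH4 was at 173 FPKM, 295 FPKM and 324 FPKM. XTH24 and XTH7 differed by -0.93 ± 0.14 and -0.90 ± 0.16.

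**Figure D2:**
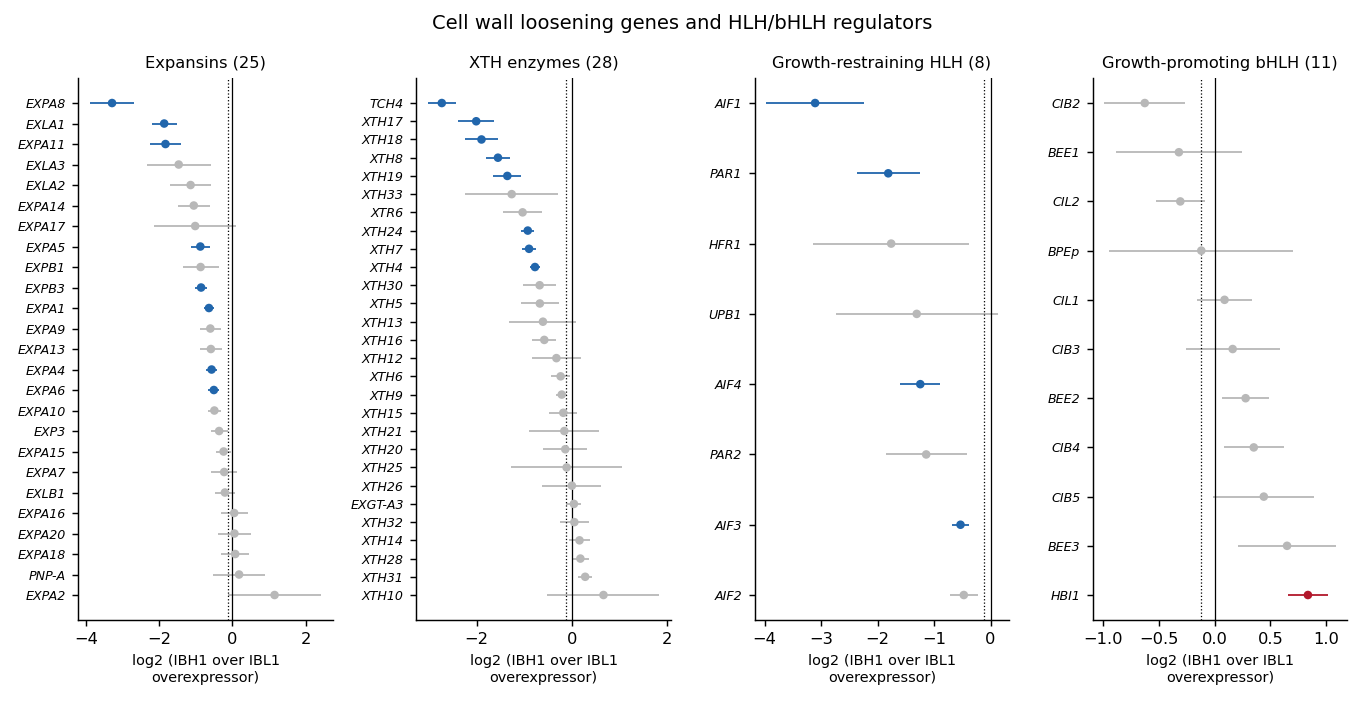
Log2 difference (IBH1 over IBL1 overexpressor) of each tested expansin, XTH gene, growth-restraining HLH gene and growth-promoting bHLH gene, with bars of 1 standard error; blue is called lower, red called higher and grey not called. The solid line is 0 and the dotted line the median of all tested genes, -0.12, and all 8 growth-restraining genes lie to the left of both.

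Of 42 cellulose synthase and wall protein genes 9 were called lower in the IBH1 overexpressor (21.4%, against 4.12% of all tested genes) and 0 higher. The median was -0.33, and 4 were called lower after centring. FLA9, a fasciclin-like arabinogalactan protein of the cell surface, was at 66.4 FPKM in the IBH1 overexpressor, 199 FPKM in the IBL1 overexpressor and 199.9 FPKM in Col, a log2 difference of -1.58 ± 0.15. FLA2 was at 45.8 FPKM, 114 FPKM and 88.0 FPKM in the same order and FLA13 at 37.5 FPKM, 70.2 FPKM and 50.1 FPKM. The primary-wall cellulose synthase genes CESA1 and CESA6 differed by -0.38 ± 0.10 and -0.44 ± 0.11 and lost their calls after centring. By difference in FPKM, the largest losses in the IBH1 overexpressor included EXT3, an extensin of the wall, at 1193 FPKM against 2082 FPKM (Col 1359 FPKM). GRP9, a glycine-rich protein gene, was at 402 FPKM in the IBH1 overexpressor, 608 FPKM in Col and 904 FPKM in the IBL1 overexpressor, a difference of -1.17 ± 0.06.

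All 8 tested growth-restraining HLH and bHLH genes had a log2 difference below 0, with a median of -1.28. AIF1, PAR1, AIF4 and AIF3 were called lower, 4 of the 8 (50%, against 4.12% of all tested genes). AIF1 and AIF4 remained called after centring. AIF1, which restrains growth in the brassinosteroid response, was at 0.986 FPKM in the IBH1 overexpressor, 8.49 FPKM in the IBL1 overexpressor and 9.12 FPKM in Col, a log2 difference of -3.11 ± 0.87. AIF4 was at 10.4 FPKM, 24.6 FPKM and 28.6 FPKM in the same order. PAR1, an HLH repressor of shade elongation, was at 3.62 FPKM in the IBH1 overexpressor, 12.7 FPKM in the IBL1 overexpressor and 24.4 FPKM in Col. AIF1 and AIF4 were thus near Col in the IBL1 overexpressor, and PAR1 was below Col in both lines. AIF1 passed the 1 FPKM filter only through the IBL1 overexpressor. AIF2, HFR1, UPB1 and PAR2 were between -0.47 ± 0.25 and -1.76 ± 1.38 and were not called.

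HBI1, the growth-promoting partner of IBH1, was the only one of 11 tested members of its list to be called (9.09%). HBI1 was higher in the IBH1 overexpressor, as were 1.41% of all tested genes. It was at 48.0 FPKM in the IBH1 overexpressor, 48.9 FPKM in Col and 26.9 FPKM in the IBL1 overexpressor, a log2 difference of 0.84 ± 0.18. The list median was 0.16. None of the 4 tested PRE genes was called, nor had any an unadjusted p below 0.05, with differences from -0.61 ± 0.48 (BS1, also known as PRE3) to 1.31 ± 1.62 (PRE5), and their errors leave room for sizeable differences either way. PIF5, listed as PIL6, a phytochrome-interacting growth factor, was at 48.5 FPKM in the IBH1 overexpressor and 38.0 FPKM in the IBL1 overexpressor, a difference of 0.35 ± 0.10. It was the 1 of 6 tested phytochrome-interacting factors called (16.7%, against 1.41% of all tested genes called higher). PIF4 was at 9.74 FPKM and 5.53 FPKM, against 33.2 FPKM in Col, and its difference of 0.82 ± 0.31 was called only after centring.

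Few brassinosteroid genes were called, as was the case for all tested genes (5.53%). Of 13 synthesis and inactivation genes none was called by the Wald test (2 had an unadjusted p below 0.05), with a median of -0.15. With 0.5 of the summed squared errors, a setting that calls 3166 of all tested genes, BEN1, BR6OX2 and DWF4 were called lower. The synthesis genes DWF4 (-0.71 ± 0.35) and CPD (0.14 ± 0.12) were on opposite sides of 0. Of 17 signalling genes 1 (5.88%), the receptor-like BRL2, was called lower (-0.70 ± 0.21) and lost the call after centring. The receptor gene BRI1 differed by -0.32 ± 0.13, and BES1 and BZR1 by -0.03 ± 0.07 and 0.07 ± 0.20, none of them called. In other hormone lists, 3 of 37 Aux/IAA and GH3 genes were lower (8.11%, against 4.12% of all tested genes). Of these the auxin repressor IAA7 (45.9 FPKM against 102 FPKM, Col 126 FPKM) differed by -1.15 ± 0.13 and kept its call after centring. After centring 1 gene of the list was also called higher. Of 52 SAUR genes 1 was called higher, a share (1.92%) near the 1.41% of all tested genes. It was SAUR71, at 31.6 FPKM in the IBH1 overexpressor, 7.06 FPKM in the IBL1 overexpressor and 10.3 FPKM in Col. In the gibberellin and GASA list 2 of 20 (10%, against 4.12% of all tested genes) were lower, GASA6 and GASA1, also after centring. In the shade list 1 of 11 (9.09%, against 4.12% of all tested genes) was lower, the homeodomain gene HAT1 (19.98 FPKM against 37.4 FPKM). No gene of 19 in the cytokinin list was called (4 had an unadjusted p below 0.05, and 4 were called lower with the smaller error), and the ethylene signalling genes EBF1 and EBF2, called lower at -0.51 ± 0.16 and -0.56 ± 0.16, lost their calls after centring.

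**Figure D3:**
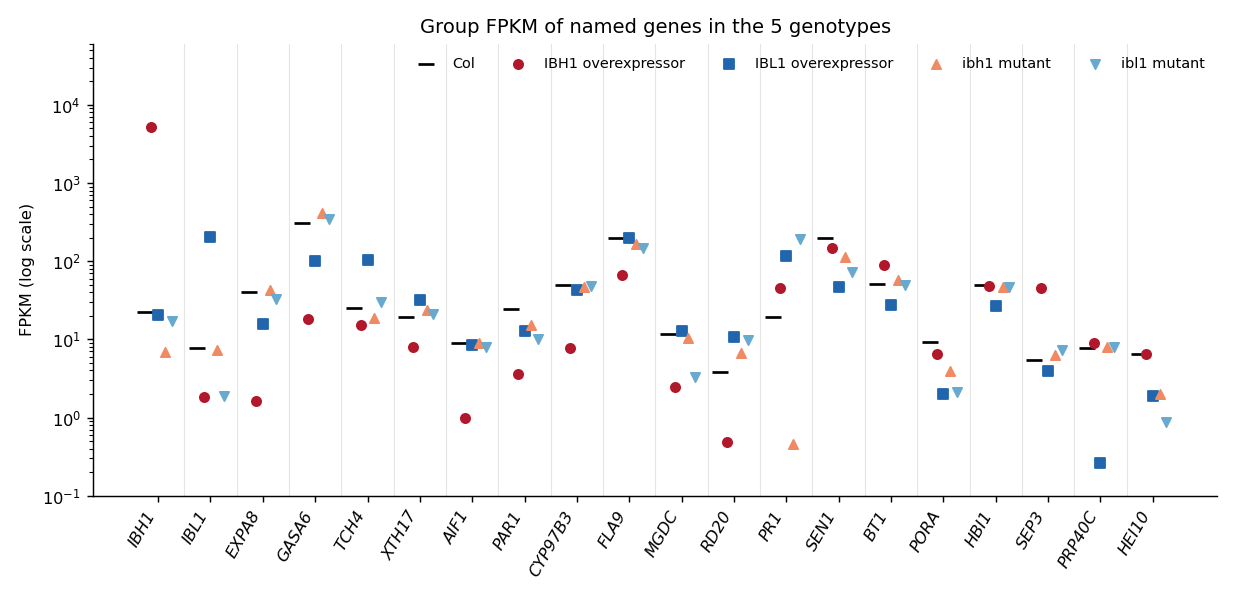
Group FPKM (log scale) of 20 named genes in the 5 genotypes, 1 value per genotype, with markers side by side for each gene. Red circles (IBH1 overexpressor) lie below blue squares (IBL1 overexpressor) for the genes from EXPA8 to PR1 and above them for those from SEN1 to HEI10.

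In the jasmonate list 8 of 31 tested genes were called lower in the IBH1 overexpressor (25.8%, against 4.12% of all tested genes) and 0 higher. The median was -0.69, and 8 were called lower after centring. The synthesis gene AOC2 was at 29.9 FPKM in the IBH1 overexpressor, 49.1 FPKM in Col and 80.1 FPKM in the IBL1 overexpressor, a log2 difference of -1.42 ± 0.23. The repressor gene JAZ1 was at 7.77 FPKM, 12.3 FPKM and 23.7 FPKM in the same order, and VSP2, a storage protein gene induced by jasmonate, at 20.1 FPKM, 30.7 FPKM and 53.4 FPKM. AOS and LOX2, upstream in jasmonate synthesis, differed by -1.22 ± 0.19 and -0.69 ± 0.11. For AOC2, JAZ1 and VSP2 the FPKM of Col lay between the lines. In the authors' Cuffdiff tests of the IBH1 overexpressor against Col, q was 0.0031 for AOC2, 0.016 for VSP2 and 0.17 for JAZ1.

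Of 20 salicylate genes 2 were lower (10%, against 4.12% of all tested genes), with a median of -0.48, and both genes were above Col in both lines. PR1, the defence marker gene, was at 45.5 FPKM in the IBH1 overexpressor, 115 FPKM in the IBL1 overexpressor and 19.3 FPKM in Col, and SAG13 at 9.33 FPKM, 34.5 FPKM and 2.69 FPKM. PR1 was also at 193 FPKM in the ibl1 mutant and 0.454 FPKM in the ibh1 mutant. Of 57 WRKY factors 4 were lower (7.02%, against 4.12% of all tested genes), or 2 after centring, with WRKY40 at 2.51 FPKM against 13.3 FPKM (-2.41 ± 0.72) and WRKY18 at 11.9 FPKM against 30.3 FPKM (-1.35 ± 0.40) keeping their calls after centring. Of 30 touch, wound and cold genes WRKY40 and JAL34 were lower, the latter only before centring, with a median of -0.45; this share, 6.67%, is near the 4.12% of all tested genes. Of 33 heat shock genes 2 were higher and 1 lower (9.09% in all, against 5.53% of all tested genes). After centring 3 were higher and 0 lower, and the median was -0.15 as deposited. The chaperone gene HSP70 was at 56.0 FPKM in the IBH1 overexpressor, 36.1 FPKM in the IBL1 overexpressor and 28.0 FPKM in Col. No gene of 16 in the pattern-triggered immunity list was called (2 had an unadjusted p below 0.05, and 2 were called lower with 0.5 of the summed squared errors), with a median of -0.39.

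In the abscisic acid and cold list 9 of 22 genes were lower and 1 higher (45.5% in all, against 5.53% of all tested genes). The median was -0.71, and 8 were lower and 1 higher after centring. RD20, a drought-induced caleosin, was at 0.481 FPKM in the IBH1 overexpressor, 3.77 FPKM in Col and 10.6 FPKM in the IBL1 overexpressor, a log2 difference of -4.46 ± 1.15. The dehydrin gene ERD10 was at 61.97 FPKM, 91.1 FPKM and 139 FPKM in the same order. RD20 passed the 1 FPKM filter only through the IBL1 overexpressor, where it was high. COR15A, LTI78 and RD22 differed by -1.27 ± 0.35, -1.23 ± 0.29 and -1.03 ± 0.12. KIN1 and KIN2 were also lower, KIN1 only before centring, but are near-identical genes between which reads may be divided. The exception was NCED4, a carotenoid cleavage gene, higher at 25.1 FPKM against 14.1 FPKM (0.84 ± 0.21).

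Of 16 flavonoid genes 5 were lower in the IBH1 overexpressor (31.25%, against 4.12% of all tested genes) and 0 higher. All 5 were above Col in the IBL1 overexpressor. The list median was -0.68, and 4 were lower after centring. Chalcone synthase, TT4, was at 258 FPKM in the IBH1 overexpressor, 266 FPKM in Col and 468 FPKM in the IBL1 overexpressor, a difference of -0.86 ± 0.10, and FLS1, flavonol synthase, at 40.2 FPKM, 42.2 FPKM and 76.9 FPKM. In the glucosinolate list 11 of 28 genes were lower (39.3%, against 4.12% of all tested genes), with a median of -0.50. After centring 7 were lower and 1 higher. CYP79B2, of indole glucosinolate synthesis, was at 46.9 FPKM in the IBH1 overexpressor, 48.1 FPKM in Col and 83.6 FPKM in the IBL1 overexpressor. CYP79F1, of aliphatic glucosinolate synthesis, was instead lowest in the IBH1 overexpressor, at 30.04 FPKM against 46.2 FPKM in the IBL1 overexpressor and 45.0 FPKM in Col.

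Of 24 genes of phosphate shortage 9 were called lower in the IBH1 overexpressor (37.5%, against 4.12% of all tested genes) and 0 higher. The median was -0.64, and 8 were called lower after centring. MGDC, a galactolipid synthase gene (MGD3), was at 2.47 FPKM in the IBH1 overexpressor, 12.8 FPKM in the IBL1 overexpressor and 11.8 FPKM in Col, a log2 difference of -2.37 ± 0.45. PS2, a phosphatase gene, was at 18.6 FPKM, 56.4 FPKM and 32.6 FPKM in the same order, and the non-coding RNA IPS1 at 19.4 FPKM, 53.5 FPKM and 34.2 FPKM. The phosphate transporter PHT1;4 differed by -1.07 ± 0.21. HAK5, a potassium transporter of roots, was at 0.249 FPKM in the IBH1 overexpressor and 5.12 FPKM in the IBL1 overexpressor (3.01 FPKM in Col). HAK5 passed the 1 FPKM filter only through the IBL1 overexpressor.

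Of 26 aquaporins 12 were lower in the IBH1 overexpressor (46.2%, against 4.12% of all tested genes) and 0 higher. The median was -0.52, and 6 were lower after centring. The vacuolar channel TIP2;2 was at 64.5 FPKM in the IBH1 overexpressor, 132 FPKM in the IBL1 overexpressor and 114 FPKM in Col, and the abundant plasma membrane channel PIP3 at 347 FPKM, 551 FPKM and 683 FPKM. Of 21 wax and cuticle genes 8 were lower (38.1%, against 4.12% of all tested genes), with a median of -0.49, and 6 after centring. KCS1, an enzyme of fatty acid elongation, was at 22.1 FPKM in the IBH1 overexpressor, 39.3 FPKM in Col and 67.7 FPKM in the IBL1 overexpressor (-1.61 ± 0.18). Iron genes went both ways, with 4 of 25 lower and 2 higher (24% in all, against 5.53% of all tested genes). After centring 2 were lower and 3 higher, and the median was -0.13 as deposited. FER1, a ferritin, was at 75.5 FPKM in the IBH1 overexpressor, 158 FPKM in the IBL1 overexpressor and 216 FPKM in Col, while OPT3, an iron transporter gene, was higher at 153 FPKM against 114 FPKM (Col 75.2 FPKM).

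**Figure D4:**
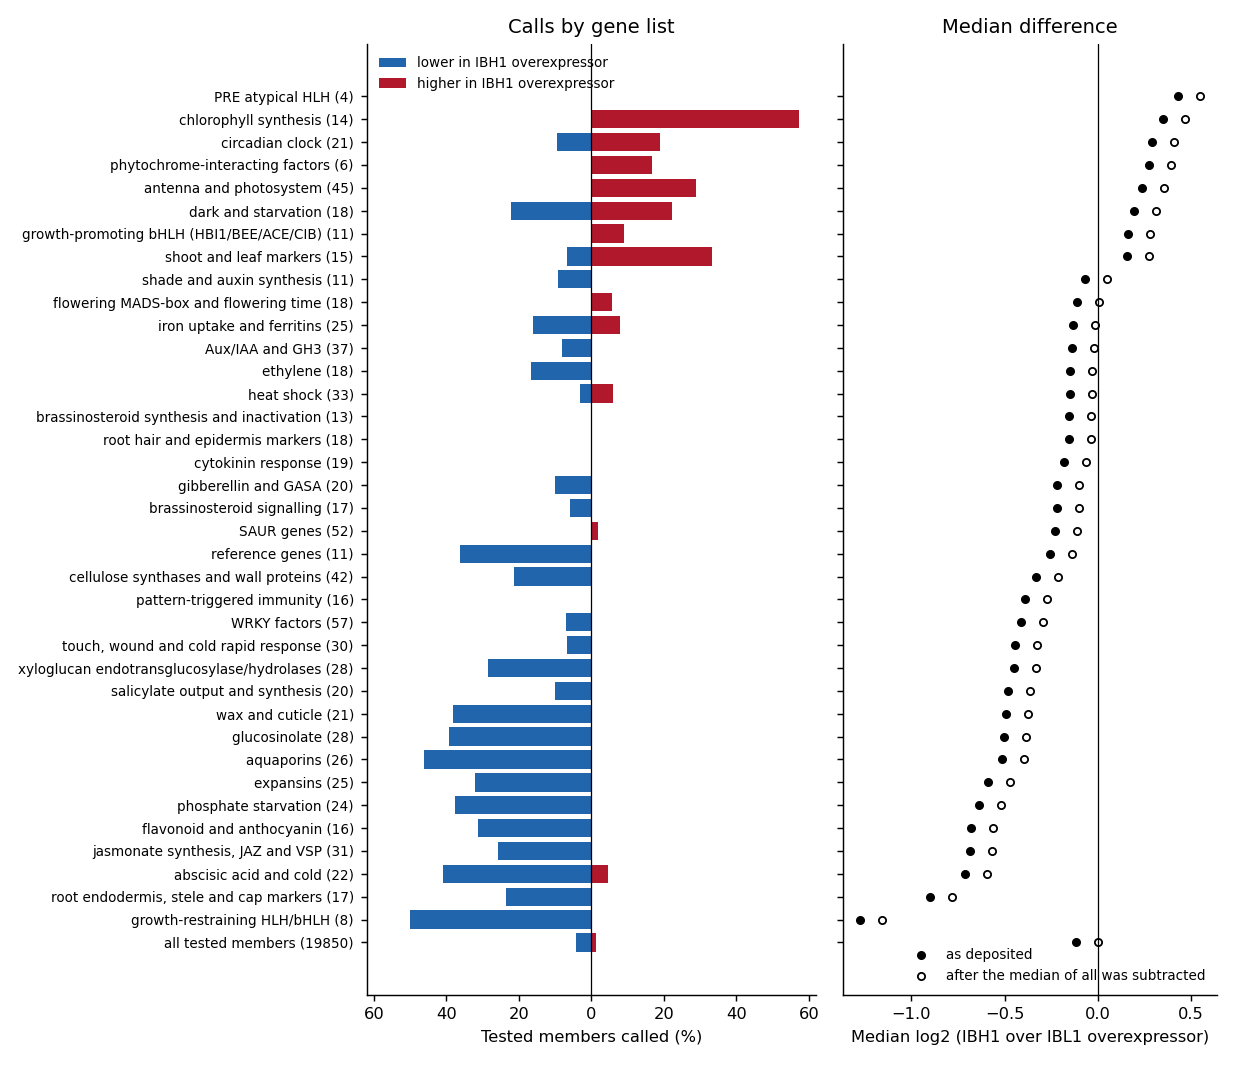
Left, share of each list's tested genes (number in brackets) called higher (red) or lower (blue) in the IBH1 overexpressor; right, the list's median log2 difference as deposited (filled) and after subtraction of the median of all genes (open). Growth-restraining HLH genes have the lowest median, -1.28, and the bottom line gives all 19850 tested genes.

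Of 45 antenna and photosystem genes 13 were called higher in the IBH1 overexpressor (28.9%, against 1.41% of all tested genes) and 0 lower. Those 13 were below Col in both lines. These shares are not matched for level, and of 1624 tested genes at 100 FPKM or more 134 were called higher. Over the 45 genes the median log2 difference was 0.24 and 44 were above 0, and after centring 24 were called higher. LHCA1, an antenna protein of photosystem I, was at 2427 FPKM in the IBH1 overexpressor, 1484 FPKM in the IBL1 overexpressor and 4231 FPKM in Col, a log2 difference of 0.71 ± 0.12. LHCB2.2, of photosystem II, was at 975 FPKM, 583 FPKM and 1944 FPKM in the same order. LHB1B2, also of photosystem II, was at 4701 FPKM against 2912 FPKM (Col 9976 FPKM); it, LHB1B1, CAB2 and CAB3 are close paralogs between which reads may be divided. Of 14 chlorophyll synthesis genes 8 were higher (57.1%, against 1.41% of all tested genes) and 0 lower. The median was 0.35, and 10 were higher after centring. CHLM was at 271 FPKM in the IBH1 overexpressor, 203 FPKM in the IBL1 overexpressor and 296 FPKM in Col, CAO at 211 FPKM, 157 FPKM and 218 FPKM, and PORA, the dark-form reductase, at 6.47 FPKM, 2.00 FPKM and 9.21 FPKM. For these 3 genes the IBL1 overexpressor was the line farther from Col.

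Whole seedlings hold shoot and root tissue, and some markers of each were called, though no root hair or epidermis marker was. Of 15 shoot and leaf markers 5 were called higher and 1 lower in the IBH1 overexpressor (40% in all, against 5.53% of all tested genes). After centring 6 were higher and 0 lower, and the median was 0.16 as deposited. Their summed level was 54011 FPKM in the IBH1 overexpressor, 47981 FPKM in the IBL1 overexpressor and 62606 FPKM in Col. Of 17 root endodermis, stele and cap markers 4 were called lower (23.5%, against 4.12% of all tested genes) and 0 higher, or 3 and 0 after centring. The median was -0.90, and 15 were below 0. The list summed to 195 FPKM, 324 FPKM and 245 FPKM in the same order. CASP1, a Casparian strip protein of the root endodermis, was at 32.1 FPKM in the IBH1 overexpressor, 67.7 FPKM in the IBL1 overexpressor and 40.3 FPKM in Col, a log2 difference of -1.08 ± 0.26. SCR, a regulator of endodermis identity, was at 17.8 FPKM and 19.3 FPKM. None of 18 root hair and epidermis markers was called (2 had an unadjusted p below 0.05, and 2 were called lower with 0.5 of the summed squared errors), with a median of -0.15, and 18 of 21 flower, pollen and seed markers were under 1 FPKM in both lines. The part of organ proportions in the phosphate, aquaporin, jasmonate, antenna and other results was not tested, and in these bulk samples fewer cells of a type and less RNA per cell cannot be told apart. Of 11 genes in common use as references all were below 0, with a median of -0.26, or -0.14 after centring. TUB4, GAPC1, ACT7 and UBQ10 were called lower, 4 of the 11 (36.4%, against 4.12% of all tested genes), and 0 higher.

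**Figure D5:**
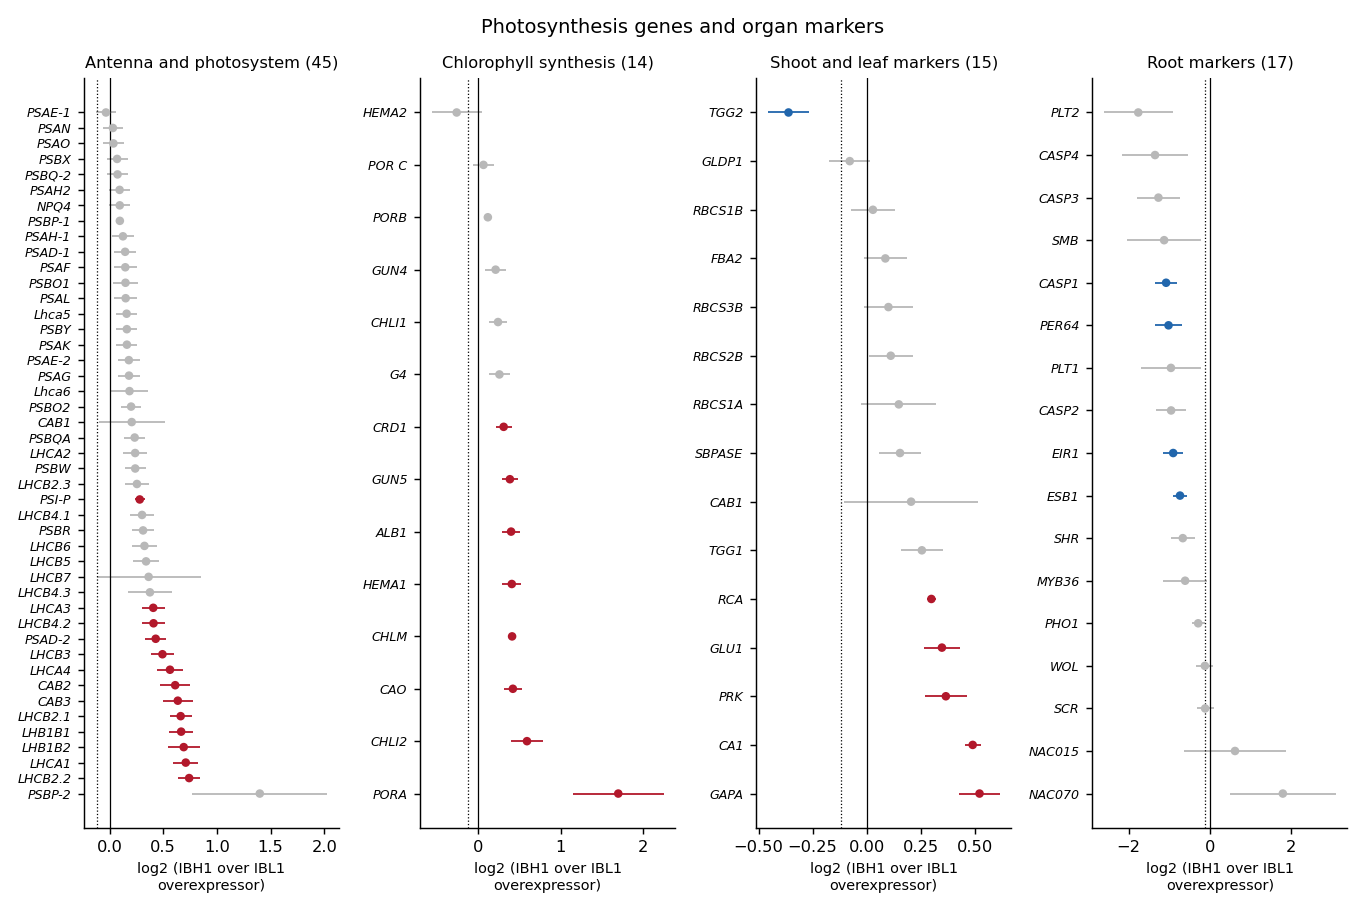
Log2 difference (IBH1 over IBL1 overexpressor) of each tested gene of the antenna and photosystem, chlorophyll synthesis, shoot and leaf marker and root marker lists, with bars of 1 standard error; red is called higher, blue called lower and grey not called. Of the 45 antenna and photosystem genes 44 lie above 0, and of the 17 root markers 15 lie below 0.

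The genes higher in the IBH1 overexpressor included several regulators. SEP3, a MADS-box factor of floral organs, was at 44.9 FPKM in the IBH1 overexpressor, 3.92 FPKM in the IBL1 overexpressor, 5.49 FPKM in Col, 6.29 FPKM in the ibh1 mutant and 7.32 FPKM in the ibl1 mutant. Its log2 difference was 3.52 ± 0.53, and it was the 1 gene called of 18 tested flowering genes (5.56%, against 5.53% of all tested genes). FT, the mobile flowering signal, was at 2.30 FPKM in the IBH1 overexpressor and 0.756 FPKM in the IBL1 overexpressor, which was not called (1.61 ± 1.46), and AP1, a gene of floral meristems, was listed at 0 in both lines. BT1, a BTB-domain scaffold gene, was at 90.6 FPKM in the IBH1 overexpressor, 51.1 FPKM in Col and 27.3 FPKM in the IBL1 overexpressor, a difference of 1.73 ± 0.19. Among clock genes 4 of 21 were higher and 2 lower (28.6% in all, against 5.53% of all tested genes). After centring 4 were higher and 1 lower, and the median was 0.29 as deposited. PRR7, a clock repressor, was at 10.6 FPKM against 5.68 FPKM (Col 17.2 FPKM), and GRP7, a clock-controlled RNA-binding protein gene, at 1236 FPKM against 805 FPKM (Col 1135 FPKM). The clock-associated gene CCL was at 592 FPKM in the IBH1 overexpressor, 593 FPKM in Col and 265 FPKM in the IBL1 overexpressor, and at 351 FPKM in the ibh1 mutant and 282 FPKM in the ibl1 mutant.

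Genes of darkness and sugar shortage split, with 4 of 18 higher and 4 lower (44.4% in all, against 5.53% of all tested genes). After centring 5 were higher and 4 lower, and the median was 0.19 as deposited. SEN1, induced by darkness, was at 147 FPKM in the IBH1 overexpressor, 46.4 FPKM in the IBL1 overexpressor and 197 FPKM in Col (1.66 ± 0.15), whereas ASN1, an asparagine synthetase gene, was at 6.21 FPKM, 15.6 FPKM and 44.5 FPKM (-1.33 ± 0.24). EXO, a growth gene induced by brassinosteroids, was at 61.4 FPKM in the IBH1 overexpressor, 57.2 FPKM in Col and 150 FPKM in the IBL1 overexpressor. CYP97B3, a cytochrome P450 gene, was at 7.71 FPKM in the IBH1 overexpressor, 42.5 FPKM in the IBL1 overexpressor, 50.1 FPKM in Col, 47.3 FPKM in the ibh1 mutant and 48.8 FPKM in the ibl1 mutant.

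Single genes also stood apart. PRP40C (AT3G19840, chromosome 3, 6891129 to 6897227, TAIR10), a pre-mRNA processing gene, was at 0.266 FPKM in the IBL1 overexpressor and at 9.05 FPKM in the IBH1 overexpressor, 7.74 FPKM in Col, 7.93 FPKM in the ibh1 mutant and 7.88 FPKM in the ibl1 mutant. The log2 difference was 5.09 ± 0.80, while those of the neighbours AT3G19830 and AT3G19850 were -0.03 ± 0.29 and -0.30 ± 0.37. PRP40C passed the 1 FPKM filter only through the IBH1 overexpressor. HEI10, a gene of meiotic crossing over, was at 6.42 FPKM in the IBH1 overexpressor and 6.51 FPKM in Col, and at 1.87 FPKM in the IBL1 overexpressor, 2.01 FPKM in the ibh1 mutant and 0.865 FPKM in the ibl1 mutant. It overlaps AT1G53480 on the other strand by 1446 bases, and that gene was at 46.7 FPKM in the IBH1 overexpressor, 49.1 FPKM in Col, 0.00583 FPKM in the IBL1 overexpressor and listed at 0 in both mutants. Reads within this overlap cannot be assigned to HEI10 or AT1G53480 without strand. Both genes were high in the IBH1 overexpressor and Col and low in the other genotypes. AT1G53480 itself was not called (12.97 ± 24.46), since its standard error near 0 FPKM is wide.

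Of the members, 570 reached 1 FPKM only in the IBH1 overexpressor and 1062 only in the IBL1 overexpressor. Of these 1632 genes 622 could be tested and 8 were called. A further count shows 480 members listed at 0 in one line, 318 in the IBH1 overexpressor and 162 in the IBL1 overexpressor, with a median of 2.37 FPKM in the other line, for which no fold is given. Within 5% of the 1 FPKM limit lay 112 genes just inside it and 106 just outside. Among tested genes with at least 1 FPKM in both lines, more were called at higher levels. Of 2171 genes at a geometric mean of 1 to 3 FPKM, 0 were called higher and 2 lower. Of 1624 genes at 100 FPKM or more, 134 were called higher and 224 lower. The median difference was -0.19 in the former and -0.08 in the latter. The shares given for gene lists are not matched for level, which matters for lists of abundant genes such as the antenna, aquaporin and reference lists.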

How the data were processed

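In all, 10 libraries of Arabidopsis seedlings were sequenced (poly(A) mRNA kit, per the labels' protocols). Base calling used CASAVA 1.8.2 and the later steps TopHat 1.4.1 and Cuffdiff, with the build TAIR10, per the submitters' processing notes. The authors deposited FPKM, a log2 fold change, a statistic, p-values and q-values for each line against Col, per the file headers. Since the deposited log2 values divide Col by the line, signs were reversed. The deposited score (the test statistic) gave each standard error, as the fold change over the statistic, and p-values measure only the spread modelled from these libraries, which may be technical.

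The log2 ratio of the FPKM values of the overexpressors was divided by the square root of the summed squared standard errors, which counts the variance of Col 2 times and so errs to fewer calls. The step was tested on simulated data (Python 3.11.15, numpy 2.4.6, pandas 2.3.3, scipy 1.17.1). Members and the 39 gene lists were chosen with earlier results of these data known. Named genes were IBH1 and IBL1, the 12 largest differences each way called as deposited and centred, up to 6 called genes each way under 1 FPKM in one line, the 5 largest FPKM differences each way, and up to 4 called genes per list (the smallest p where none was); other list members are named to show a range, after their values were seen. IBL1 was taken as AT4G30410 from general knowledge of the family. Of the gene IDs, 31294 (91.9%) were in the RefSeq annotation. The result of 1 gene of the ethylene list is not reported here.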

Additional observations from a re-analysis of the deposited data

Results flagged for a closer look

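AT3G01345 (chromosome 3, 129138 to 130749, TAIR10), which the annotation gives as an uncharacterized protein and which was chosen after its values were seen, had a signal in a genotype outside the comparison. It was at 155 FPKM in the ibl1 mutant, against 0.245 FPKM in Col, 0.726 FPKM in the ibh1 mutant, 1.25 FPKM in the IBL1 overexpressor and 162 FPKM in the IBH1 overexpressor. Between the overexpressors its log2 difference was 7.02 ± 1.51 and it was called. The neighbours AT3G01340 and AT3G01350 differed by -0.39 ± 0.18 and -0.06 ± 0.54.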

How the results depend on the processing

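The 1098 calls became 3166 with 0.5 of the summed squared errors, which holds where Col and the lines vary alike (834 higher, 2332 lower), and 698 at an adjusted p threshold of 0.01 (175 higher, 523 lower). Scaling moved the direction of the calls: centring gave 528 higher and 486 lower, and upper quartile scaling 496 and 530. Centring within 20 bins of level, chosen after seeing the data, gave 438 and 558. The share of calls that were higher was 25.5% as deposited, 52.1% centred and 44% binned. Genes at least 2-fold apart were 268 higher and 937 lower with 1 FPKM required in both lines, 697 and 1156 centred, and 840 and 961 binned. The other filters and pseudocounts kept these counts within 1.5 times. Of 135 named genes 21 lost their call after centring and 40 at the 0.01 threshold, 4 (GL2, BEN1, FLS2 and ARR4) gained one with 0.5 of the summed squared errors, and none reversed under any setting run; a pseudocount of 1 moved 6 by over 1 standard error, such as PRP40C to 2.99. No paired analysis was possible because the files give group values and no columns per library, so no replicate could be left out either.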
